A study of Rattus norvegicus with 6 samples.

Results

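A set of 10 genes, all amino acid transporters of the plasma membrane, was followed in cultured neonatal rat heart muscle cells with and without isoproterenol. They are Slc7a1, Slc7a3, Slc7a5, Slc7a6, Slc7a11, Slc3a2, Slc1a4, Slc1a5, Slc38a1 and Slc38a2. They were chosen by name, as all rows of the deposited mRNA table whose RefSeq transcript belongs to 1 of these 10 listed genes. Of the 10 genes, 8 were found, each with 1 row, among the 20734 rows of the table. Expression of Slc7a1 and Slc38a2 was not analysed here, as no row was named as either gene, though rows left without a name could include them.

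A cell cannot make all the amino acids it needs for protein, so carriers in its surface bring them in, often by exchanging one amino acid for another. Some carriers work alone, while others are light chains that reach the surface only when joined to a heavy chain, which for several of them is Slc3a2. In cells that grow, as heart muscle cells do under catecholamines, supply of leucine, arginine, glutamine and cystine is known to feed protein synthesis, growth signalling through mTORC1 and glutathione synthesis.

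RNA was hybridised to one-colour arrays, 3 for each of 2 groups. The controls were ventricular cardiomyocytes of Sprague-Dawley rats aged 1 to 3 days, left untreated. The other group, of the same source, was exposed for 24 h to 10 µM isoproterenol, a catecholamine that activates beta-adrenergic receptors. Per the labels' protocols fibroblasts were reduced by attachment to an uncoated flask, and the cells were then plated with serum and moved to serum-free medium. The labels also mention passages and the series text mentions transfection, neither of which is described in the protocols. Replicates are called biological in the series text, but no label ties one to a litter or a preparation, so that p-values reflect only how far these samples spread. Slides were told apart by the scan date recorded with each array, and no slide name was used. By that rule control replicates 1 to 3 and isoproterenol replicate 1 lay on slide 1, and isoproterenol replicates 2 and 3 on slide 2. On slide 1 between 97.5% and 99.7% of mRNA probes were well above background, and on slide 2 61.0% and 70.6%. No spot was saturated. Slide and treatment therefore partly coincide, and each transporter's change is also given within slide 1, while for other genes a call that is lost there is named. There, 1 isoproterenol array stands against 3 controls and is assumed to vary as they do. Slide 2 holds no control, so a fit with slide as a block gives the same change and is not a separate check. All 7 cardiomyocyte markers in the table, among them Tnnt2, Actn2 and Myl2, were well above background on all 6 arrays.

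Of the 8 transporters 4 rose, 0 fell and 4 did not pass the test. Slc7a3 rose 13.2-fold and Slc7a11 6.09-fold, and these passed under each of the 20 alternative ways of processing. The 20 are not separate checks, since some of them repeat the same change. Slc38a1 rose 2.47-fold and Slc1a4 2.34-fold, and neither passed within slide 1. The test was limma's moderated test, two-sided, with Benjamini-Hochberg adjustment over all 20011 mRNA genes and a threshold of 0.05. At an unadjusted p under 0.05 limma gave 6 of the 8 as higher and 0 as lower, where 22.4% of all genes were higher and 13.4% lower. After adjustment 15.8% of all genes changed, 9.98% rising and 5.82% falling. The median change of the 8 transporters was 1.20 on the log2 scale and that of all genes 0.07. Values below are log2 of the processed signal relative to the 75th percentile of the same array, so that 0 is the level that 75% of the probes on the array did not exceed. Changes are isoproterenol minus control, with their standard error (SE) from the fit and 3 arrays in each group (n = 3). Since the cultures may hold more than 1 cell type, a change in the share of cells and a change in RNA per cell cannot be told apart.

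**Figure D1:**
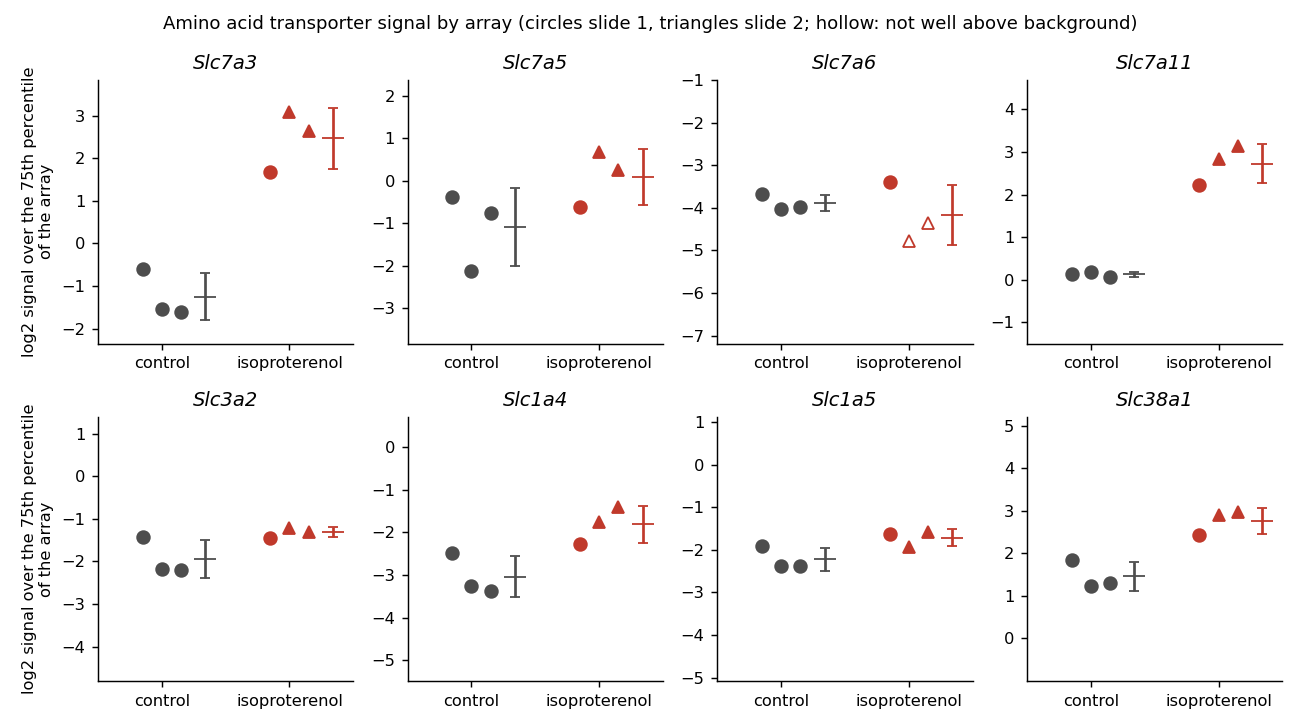
Signal of the 8 transporters on each array, as log2 relative to the 75th percentile of the array, with all panels spanning the same range; the horizontal marks and bars are the mean and SD of the 3 arrays of a group. Groups stand apart for Slc7a3, Slc7a11, Slc38a1 and Slc1a4, while for Slc7a6 both slide 2 arrays were not well above background.

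Upstream sequence is shown for the 3 of the 4 genes that rose for which a window was at hand; 2 of the 3 hold a match to a motif known from amino acid responses and Slc7a11 does not. RefSeq windows of assembly GRCr8 were at hand for 8 of the 10 listed genes and not for Slc7a3 or Slc1a5. Each run is the 250 bases before the annotated start, read 5′ to 3′ along the gene's strand, with any match to the motifs in capitals. All 3 genes lie on the minus strand, Slc38a1 at chr7:129681402-129681651, Slc1a4 at chr14:98761563-98761812 and Slc7a11 at chr2:136668265-136668514.
Slc38a1: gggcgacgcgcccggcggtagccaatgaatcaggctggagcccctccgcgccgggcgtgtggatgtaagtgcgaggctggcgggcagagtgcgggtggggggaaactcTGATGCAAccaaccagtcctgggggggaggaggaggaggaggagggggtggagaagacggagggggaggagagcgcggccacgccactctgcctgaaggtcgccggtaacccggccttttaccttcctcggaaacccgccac
Slc1a4: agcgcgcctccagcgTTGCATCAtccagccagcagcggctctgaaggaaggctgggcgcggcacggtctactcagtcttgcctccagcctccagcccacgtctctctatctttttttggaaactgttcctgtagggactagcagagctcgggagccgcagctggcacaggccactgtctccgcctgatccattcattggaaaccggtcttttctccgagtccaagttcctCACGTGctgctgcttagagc
Slc7a11: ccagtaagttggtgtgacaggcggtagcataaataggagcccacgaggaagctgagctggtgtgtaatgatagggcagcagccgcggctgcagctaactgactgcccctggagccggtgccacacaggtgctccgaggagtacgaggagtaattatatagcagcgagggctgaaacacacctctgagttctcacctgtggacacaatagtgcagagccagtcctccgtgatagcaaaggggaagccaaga

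In all, 5 motifs were searched on both strands. They were TGATGNAA, the core of the amino acid response element that ATF4 binds; TGACNNNGC, the core of the antioxidant response element; CACGTG, the E-box; TGACGTCA, the cAMP response element; and TGACG, which TGACGTCA contains. TGATGNAA was found in Slc38a1, starting 142 bases before the gene start, in Slc1a4 on the opposite strand with its first letter in the window 235 bases before it, and in Slc7a1 30 bases before it. It occurs in 3.40% of all 33469 windows of this length. CACGTG was found in Slc1a4, starting 20 bases before the start, and in Slc7a5, starting 179 bases before it, against 5.59% of all windows. TGACNNNGC was found in Slc7a1, Slc38a2 and 1 of 2 windows of Slc3a2, against 10.1% of windows. TGACG was found in Slc7a1, Slc38a2, where it overlaps TGACNNNGC, and the other window of Slc3a2, against 18.2%. No member's window held TGACGTCA, which occurs in 1.59% of windows, and the windows of Slc7a11 and Slc7a6 held none of the 5. These matches describe the letters in the windows and no more.

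Slc7a3 encodes a carrier for the cationic amino acids arginine, lysine and ornithine, which works without a heavy chain. Its processed signal was 359, 199 and 182 scanner units in control replicates 1 to 3 and 1927, 1768 and 1546 in isoproterenol replicates 1 to 3. Every isoproterenol array was above every control array even before scaling, although the 75th percentile of the signal on slide 2 was 207 and 249.1 units, against 546.7 to 599.2 on slide 1. Relative to that percentile the controls were at −0.61, −1.55 and −1.60 and the isoproterenol arrays at 1.68, 3.09 and 2.63. The change was 3.72 ± 0.43 (SE; limma's adjusted p = 0.0055), the 10th highest of the 20011 genes. Within slide 1 the change was 2.94 (limma's adjusted p = 0.047), and over all alternatives it lay between 2.94 and 4.20.

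The name table also lists Slc7a3l1, by its name a Slc7a3-like gene, which was looked at because of that name after the values were known. It rose by 2.13 ± 0.34 (limma's adjusted p = 0.012), and by 1.51 within slide 1 (limma's adjusted p = 0.061). Probe sequences were not used here, so whether the probes of Slc7a3 and Slc7a3l1 also bind the other gene's RNA was not tested, and the value of each is uncertain to that extent.

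Slc7a11 encodes the light chain of the cystine and glutamate exchanger, which brings in cystine for glutathione synthesis and sends glutamate out. The controls were at 0.13, 0.18 and 0.06 and the isoproterenol arrays at 2.22, 2.82 and 3.14. All isoproterenol values lay above all controls, and the controls were close together, with an SD of 0.059 that was smaller in 12.4% of all genes. The change was 2.61 ± 0.25 (SE; limma's adjusted p = 0.0036), the 71st highest. It was 2.10 within slide 1 (limma's adjusted p = 0.027) and between 2.10 and 2.88 over all alternatives.

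Slc7a5 encodes the light chain of the exchanger for leucine and other large neutral amino acids. Its control values were −0.39, −2.12 and −0.76 and its isoproterenol values −0.62, 0.66 and 0.24. The groups overlapped, since isoproterenol replicate 1 lay below control replicate 1, and the control SD of 0.91 was larger than in 98.3% of genes. The change of 1.18 ± 0.52 did not pass (limma's adjusted p = 0.15). Its unadjusted 95% interval ran from −0.05 to 2.41, which takes in no change as well as a rise larger than that of Slc38a1, and within slide 1 the value was 0.46.

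Slc7a6 encodes a light chain that exchanges arginine for neutral amino acids. Its signal was dim, at −3.68, −4.02 and −3.97 in the controls and −3.40 in isoproterenol replicate 1. On the slide 2 arrays the probe read −4.78 and −4.35 and was not well above background, so these are bounds rather than levels. The change of −0.28 ± 0.36 did not pass (limma's adjusted p = 0.59; unadjusted 95% interval −1.13 to 0.56). Its sign turned to 0.50 within slide 1, and no direction is given for this gene.

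Slc3a2 encodes the heavy chain, a glycoprotein that carries Slc7a5, Slc7a6 and Slc7a11 to the cell surface. It was at −1.43, −2.19 and −2.21 in the controls and at −1.44, −1.20 and −1.30 with isoproterenol. Control replicate 1 reached the isoproterenol values, and the other controls lay below them. The change of 0.63 ± 0.25 did not pass (limma's adjusted p = 0.12; unadjusted 95% interval 0.03 to 1.22), and within slide 1 it was 0.50.

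Slc1a4 and Slc1a5 encode sodium-dependent exchangers of small neutral amino acids such as alanine, serine and cysteine, and Slc1a5 also takes glutamine. For Slc1a4 the controls were at −2.48, −3.26 and −3.37 and the isoproterenol arrays at −2.28, −1.75 and −1.41. The groups did not overlap, but isoproterenol replicate 1 was only just above control replicate 1. The change of 1.23 ± 0.33 was close to the threshold (limma's adjusted p = 0.048) and passed under 8 of 20 alternatives, with adjusted p between 0.0028 and 0.29. Within slide 1 it was 0.76 (limma's adjusted p = 0.28). Slc1a5 read −1.91, −2.38 and −2.37 in the controls and −1.62, −1.94 and −1.58 with isoproterenol. Here isoproterenol replicate 2 lay just below control replicate 1. The change of 0.50 ± 0.21 did not pass (limma's adjusted p = 0.13; unadjusted 95% interval 0.01 to 1.00), and within slide 1 it was 0.59.

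Slc38a1 encodes a sodium-coupled carrier that takes up glutamine and other small neutral amino acids. The controls were at 1.84, 1.23 and 1.31 and the isoproterenol arrays at 2.42, 2.89 and 2.98. All isoproterenol values lay above all control values. The change was 1.31 ± 0.25 (SE; limma's adjusted p = 0.019), and 13 of 20 alternatives passed. Within slide 1 it was 0.96 (limma's adjusted p = 0.13). Leaving out control replicate 2 or 3, or isoproterenol replicate 2 or 3, ended the call for Slc38a1, with adjusted p between 0.064 and 0.095. The same 4 omissions ended it for Slc1a4.

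**Figure D2:**
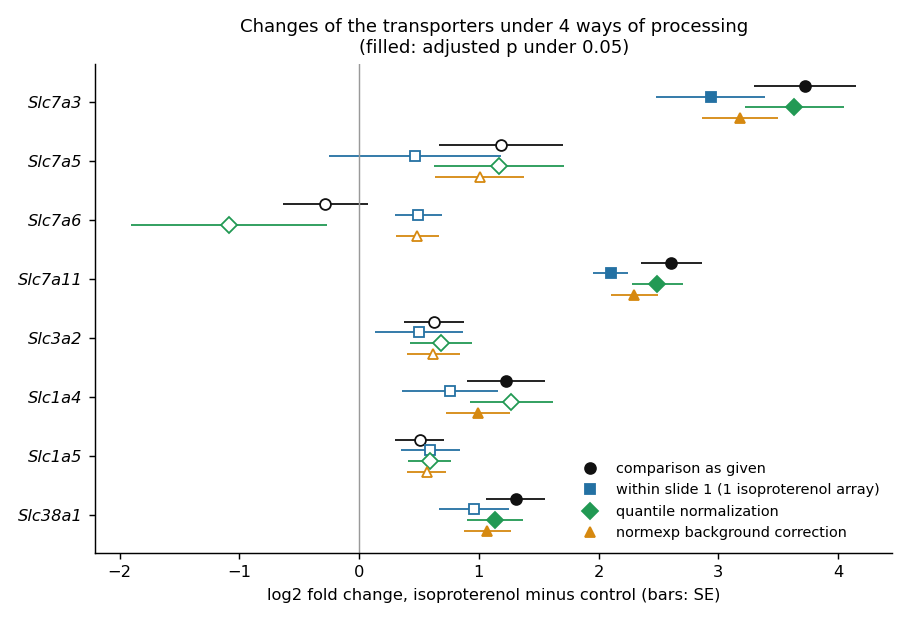
Log2 change of each transporter, isoproterenol minus control, with its SE under 4 ways of processing; a filled mark has an adjusted p under 0.05. Slc7a3 and Slc7a11 are filled throughout, Slc7a5, Slc3a2 and Slc1a5 lie above 0 without passing, and Slc7a6 lies on both sides of 0.

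With slide as a block, 2 of the 8 transporters rose, Slc7a3 and Slc7a11, where 7.26% of all genes changed. Within slide 1 the same 2 rose, where 5.2% of all genes changed. The median change of the 8 was then 0.68 and that of all genes 0.11. In the deposited mRNA table Slc7a3, Slc7a11 and Slc38a1 rose, where 1600 of 20011 genes rose and 1301 fell. There Slc1a4 did not pass (limma's adjusted p = 0.057). The groups did not overlap in 4 of the 8 transporters and in 41.4% of all genes, so that count is close to the background.

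The arrays ranked alike across the transporters. Control replicate 1 gave the highest control value in 7 of the 8, all but Slc7a11, and in 41.0% of all genes. Isoproterenol replicate 1 gave the lowest isoproterenol value in 6 of the 8, all but Slc7a6 and Slc1a5, and in 47.9% of all genes. Isoproterenol replicate 1, on slide 1, differed from the control mean by 2.94 for Slc7a3, where replicates 2 and 3, on slide 2, differed by 4.35 and 3.88. For Slc7a11 the differences were 2.10, 2.70 and 3.02, and for Slc38a1 0.96, 1.44 and 1.52. The 8 values of an array share its labelling and scan, and whether the order is that of the cultures or of the arrays was not tested.

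Because some of these proteins act in pairs, 3 within-array differences were compared, which do not depend on how arrays are scaled. The pairs were chosen after the values were seen, and with 3 arrays against 3 the exact permutation test cannot go below p = 0.1. For Slc7a11 relative to its heavy chain Slc3a2 the difference was 1.98 on the log2 scale (SD 0.44 in controls and 0.39 with isoproterenol), and the groups did not overlap (two-sided exact permutation p = 0.1, adjusted over 3 pairs 0.3). Within slide 1 that difference was 1.60. For Slc7a5 relative to Slc3a2 the difference was 0.55, smaller than the control SD of 0.71, and the groups overlapped (exact permutation p = 0.4, adjusted 0.4). Within slide 1 it was −0.035, on the other side of 0. For Slc1a4 relative to Slc1a5 it was 0.72 with overlap (exact permutation p = 0.2, adjusted 0.3), and 0.16 within slide 1.

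**Figure D3:**
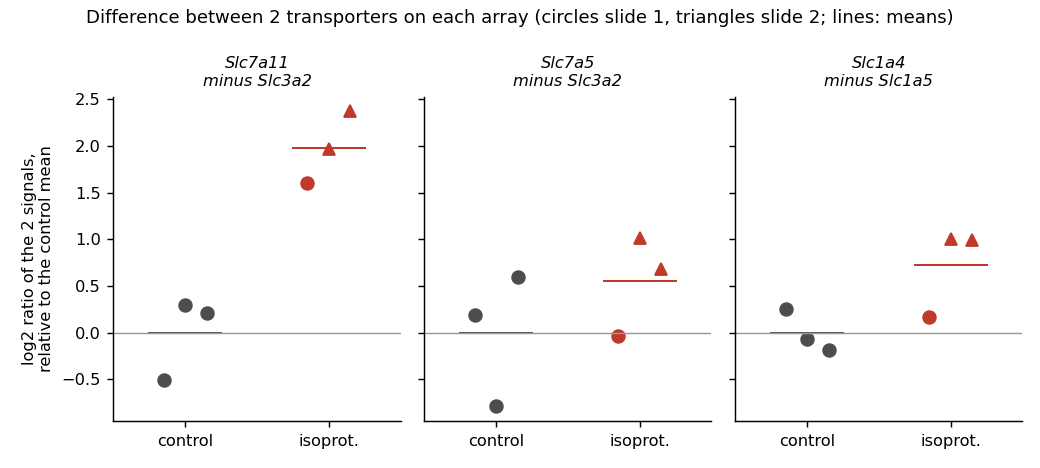
Difference between 2 transporters on each array, as the log2 ratio of their signals with the mean of the controls set to 0; horizontal lines are group means. The 3 isoproterenol arrays lie above the 3 controls for Slc7a11 minus Slc3a2, and the groups overlap for the other pairs.

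In a list of other amino acid carriers 23 of the 27 tested did not pass, 1 rose and 3 fell, where 9.98% and 5.82% of all genes did. The median change was −0.03 against 0.07 for all genes, and within slide 1 it was 0.25 against 0.11. Slc7a8, a further light chain of Slc3a2 that exchanges neutral amino acids, rose by 1.36 ± 0.31 (limma's adjusted p = 0.032), and by 0.69 within slide 1 (limma's adjusted p = 0.12). Slc16a10, a carrier of aromatic amino acids, read 0.45, 0.71 and 0.89 in the controls and −1.88, −1.26 and −1.50 with isoproterenol. Those groups stood far apart, and Slc16a10 fell by 2.23 ± 0.23 (limma's adjusted p = 0.0041), with −2.57 within slide 1 (limma's adjusted p = 0.029). Slc7a4, a relative of the cationic carriers, fell by 2.45 ± 0.41 (limma's adjusted p = 0.014) and was well above background on 2 of 3 isoproterenol arrays. Under normexp background correction it was −1.33 and did not pass (limma's adjusted p = 0.052). That correction adds a fixed offset of 50, which can lift dim probes on slide 2, where signal was lower, relative to the controls. Slc6a17, a member of the list that is known from synaptic vesicles of neurons and so does not match its name, fell by 1.20 ± 0.29 (limma's adjusted p = 0.037), and neither Slc7a4 nor Slc6a17 passed within slide 1. Slc7a2, another cationic carrier, was at −0.77 ± 0.27 on its brightest probe and did not pass (limma's adjusted p = 0.093). Its other probe, at −0.95, did not pass either. Slc1a3, a glutamate carrier, had 4 probes that disagreed, with changes of 0.25, 1.02, 1.29 and 1.80, of which 2 passed; its brightest probe, the 1.29, did not.

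**Figure D4:**
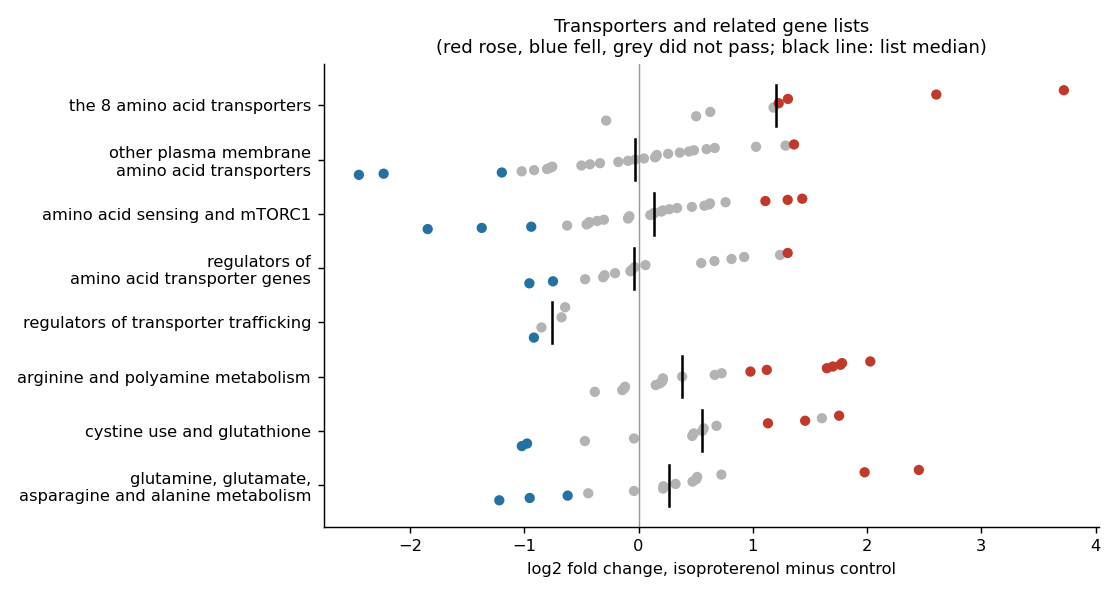
Log2 change, isoproterenol minus control, of each tested gene in the transporters and in 7 related lists, where red genes rose, blue fell, grey did not pass and black lines are list medians. The transporters have the highest median, 1.20, and the 19 polyamine genes hold 7 red and 0 blue points. Over all genes 9.98% rose and 5.82% fell.

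Among regulators of amino acid transporter genes, 1 rose, 2 fell and 13 of 16 did not pass, with a median of −0.04. Over all genes 9.98% rose and 5.82% fell. Atf4, the transcription factor of the amino acid response, was at 2.98, 1.81 and 1.90 in the controls and 3.23, 3.67 and 3.70 with isoproterenol. As with most of the transporters, control replicate 1 was the highest control and isoproterenol replicate 1 the lowest treated array. Atf4 rose by 1.31 ± 0.34 (limma's adjusted p = 0.046), and was 1.00 within slide 1 (limma's adjusted p = 0.28). Ddit3, a stress factor that ATF4 can induce, fell by 0.96 ± 0.16 (limma's adjusted p = 0.014), and Hif1a, the oxygen-regulated factor, by 0.75 ± 0.20 (limma's adjusted p = 0.047). Neither passed within slide 1 (limma's adjusted p = 0.057 and 0.19). Atf4 also missed the threshold under normexp and under quantile normalization (limma's adjusted p = 0.053 and 0.098). Trib3, another target of ATF4, was at 1.24 ± 0.37 and Myc at 0.81 ± 0.23, and neither passed (limma's adjusted p = 0.063 and 0.053). Nfe2l2, which encodes the factor that binds antioxidant response elements, was at −0.03 ± 0.17 (limma's adjusted p = 0.90).

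In the machinery that senses amino acids for mTORC1, 3 of 27 genes rose, 3 fell and 21 did not pass. The median was 0.13, and of all genes 9.98% rose and 5.82% fell. Besides Atf4, the rises were those of Ddit4, an inhibitor of mTORC1, at 1.43 ± 0.24 (limma's adjusted p = 0.014), and Slc38a9, the lysosomal arginine sensor, at 1.11 ± 0.25 (limma's adjusted p = 0.030). Neither Ddit4 nor Slc38a9 passed within slide 1 (limma's adjusted p = 0.071 and 0.13) or with slide as a block, so that 0 rises were left in this list. The GTPase Rragd fell by 1.84 ± 0.25 (limma's adjusted p = 0.0085), with −2.21 within slide 1 (limma's adjusted p = 0.039). Nprl2, a subunit of the GATOR1 complex that inhibits mTORC1, fell by 0.94 ± 0.20 (limma's adjusted p = 0.025), and did not pass within slide 1 (limma's adjusted p = 0.073). Fnip1, a partner of folliculin, fell by 1.37 ± 0.18 (limma's adjusted p = 0.0075), but was well above background on 1 isoproterenol array, and normexp background correction gave −0.33. Within slide 1 Fnip1 was at −1.14. Of the 4 tested genes that govern trafficking of carriers, Arrdc3, an arrestin-like adaptor, fell by 0.92 ± 0.24 (limma's adjusted p = 0.048) but stood at 0.10 under normexp and did not pass within slide 1 (limma's adjusted p = 0.21). Nedd4, Sgk1 and Txnip did not pass, and the probes of Sgk1 differed in direction.

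Arginine, which Slc7a3 carries, is the source of ornithine and so of polyamines. In that list 7 of 19 genes rose, 0 fell and 12 did not pass, where 9.98% of all genes rose and 5.82% fell. Also at limma's unadjusted p under 0.05, 0 of them fell, where 13.4% of all genes did. The median was 0.38, and 0.06 within slide 1. Arg1, which splits arginine to ornithine, rose by 1.78 ± 0.23 (limma's adjusted p = 0.0078). Its control values were dim, at −4.42, −3.65 and −4.15. Srm, spermidine synthase, rose by 1.70 ± 0.24, and Amd1, which supplies its aminopropyl donor, by 1.65 ± 0.27. Odc1, the ornithine decarboxylase, rose by 1.12 ± 0.20, and Azin2, an antizyme inhibitor that protects it, by 1.77 ± 0.39. Azin1, the other antizyme inhibitor, rose by 2.03 ± 0.40 on its brightest probe, while its second probe, at 0.83, did not pass. With slide as a block 4 of the 7, Arg1, Azin1, Amd1 and Srm, passed, and within slide 1 only Amd1 passed, at 1.06 (limma's adjusted p = 0.041).

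Cystine, which Slc7a11 brings in, is reduced to cysteine for glutathione. Of 13 genes in that list 3 rose, 2 fell and 8 did not pass, with a median of 0.56. The shares of all genes were 9.98% rising and 5.82% falling. Cth, which makes cysteine from cystathionine, rose by 1.46 ± 0.23 (limma's adjusted p = 0.012). In the gamma-glutamyltransferase family, whose classical members break down extracellular glutathione, Ggt7 rose by 1.76 ± 0.28 and Ggt1 by 1.13 ± 0.23, whereas Ggt5 fell by 0.98 ± 0.17 and missed the threshold under normexp (limma's adjusted p = 0.053). Ggt1 was dim, at −4.38, −4.25 and −4.47 in the controls, and was well above background on 2 isoproterenol arrays. Mpst, an enzyme of cysteine breakdown, fell by 1.02 ± 0.18. The subunits of the enzyme that starts glutathione synthesis, Gclc and Gclm, were at 0.68 ± 0.21 and 0.48 ± 0.23 and did not pass (limma's adjusted p = 0.066 and 0.18). Within slide 1 Ggt7, Ggt1, Ggt5 and Mpst passed and Cth did not.

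For the amino acids that Slc38a1, Slc1a4 and Slc1a5 carry, 2 of 14 metabolic genes rose, 3 fell and 9 did not pass. Their median was 0.27, and of all genes 9.98% rose and 5.82% fell. Slc1a5 itself is 1 of those 14. Gpt2, the mitochondrial enzyme that links alanine to glutamate, rose by 2.45 ± 0.34 (limma's adjusted p = 0.0090), and by 1.69 within slide 1 (limma's adjusted p = 0.034). Aldh18a1, which starts proline synthesis from glutamate, rose by 1.98 ± 0.43, and Prodh, which starts proline breakdown, fell by 0.95 ± 0.22. Glul, glutamine synthetase, fell by 1.22 ± 0.16 (limma's adjusted p = 0.0080), with −1.13 within slide 1. Got2, the mitochondrial aspartate aminotransferase, fell by 0.62 ± 0.15. Aldh18a1, Prodh and Got2 did not pass within slide 1 (limma's adjusted p = 0.21, 0.17 and 0.081). Prodh, above background on 2 isoproterenol arrays, was at −0.31 under normexp and did not pass (limma's adjusted p = 0.22). Asns, asparagine synthetase and a classical target of ATF4, was at 0.51 ± 0.17 and did not pass (limma's adjusted p = 0.078).

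Markers of other cell types moved with treatment in part, where 9.98% of all genes rose and 5.82% fell. Among smooth muscle and pericyte markers 2 of 7 rose, Acta2 by 1.91 ± 0.50 and Tagln by 1.77 ± 0.34. The other 5 did not pass, with Cspg4 at 1.07, Rgs5 at 0.18, Pdgfrb at −0.16, Myh11 at −0.27 and Kcnj8 at −0.61. The summed signal of the 7 was 83.7 to 149 times the 75th percentile in controls and 217 to 498 times with isoproterenol. That sum is mostly Acta2 and Tagln, which averaged 4.88 and 6.19 in controls, where the next brightest, Rgs5, averaged 0.29. Within slide 1 Acta2 was at 1.16 and Tagln at 1.03, and neither passed there (limma's adjusted p = 0.32 and 0.082) or with slide as a block. As in most of the transporters, Acta2 was highest among controls in replicate 1 and lowest among treated arrays in replicate 1. Among 10 fibroblast markers 2 rose, Thy1 and Ddr2, and 4 fell, Col3a1, Lum, Postn and Tcf21, with summed signals of 156 to 165 and 133 to 178. Within slide 1 Col3a1 and Postn passed and the other 4 did not. For 7 endothelial markers, of which Kdr fell, also within slide 1, the sums were 15.2 to 17.1 and 14.3 to 15.8. The erythroid list showed 1 fall in 3, that of Hbb, which did not pass within slide 1, with sums of 27.1 to 32.2 and 21.3 to 38.8. By limma 0 of 6 macrophage and leukocyte markers changed, 1 at an unadjusted p under 0.05 (C1qa), with sums of 25.1 to 36.9 and 33.5 to 51.3. Of the 7 cardiomyocyte markers 0 changed, 2 at an unadjusted p under 0.05 (Actn2 and Pln), with sums of 847 to 1038 and 909 to 1377. Within slide 1, however, 2 of the 7 fell, Pln at −1.24 and Mybpc3 at −1.15 (limma's adjusted p = 0.041 and 0.047), as they did with slide as a block. All of these markers were well above background on all 3 control arrays. So were 97.48% to 99.58% of all mRNA probes there, so this cannot show which cell types were present. Listed markers without a row in the table were not looked at. Falls of Kdr, Hbb and Tcf21 rested on 1, 1 and 2 isoproterenol arrays above background, and under normexp they were −0.07, 0.06 and −0.22. As normexp can lift dim probes on slide 2, those values do not settle whether the 3 genes fell. Within slide 1 the changes were −1.27, −0.78 and −0.81. Any part of other cell types in the changes of the transporters was not tested.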

How the data were processed

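The deposited scanner files hold linear Cy3 intensity, from which Agilent Feature Extraction (version 11.0.1.1) had subtracted background, per the file headers. The authors also deposited an mRNA table of log2 values; the sources used here do not give the tool behind it. Scanner files carry probe numbers and the table carries transcripts, so rows were placed on probes by their values over the 6 arrays: 20713 of 20734 rows matched, and 21 did not. Names came from RefSeq's table of GRCr8, which named 13956 of 14757 RefSeq rows and 0 of 5977 Ensembl rows, so a listed gene could stand unnamed.

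Computed here (R 4.3.3, limma 3.58.1, Python 3.11.15): log2 of the processed signal minus the 75th percentile of each array over non-control probes, outlier spots left out, spots of a probe averaged. A probe had to be well above background on at least 3 of 6 arrays, which removed 0 rows. A gene's brightest probe was tested with lmFit and eBayes, two-sided, adjusted over 20011 genes. The script was tested on simulated data. The number of arrays limits the precision. Alternatives were normexp (offset 50), other scalings, filters, slide and replicate blocks, weights and omitted replicates. All transporters found are named; of other lists, genes past the threshold, at most the 6 of largest change, and members singled out for their role, which were chosen after their values were seen. Members and lists were chosen with earlier results of these data known.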

Additional observations from a re-analysis of the deposited data

How the results depend on the processing

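Of the 8 transporters, Slc7a3 and Slc7a11 passed under all 20 alternatives, and Slc7a5, Slc3a2, Slc1a5, Slc1a4 and Slc38a1 kept their sign under all 20. Some of the 20 could not differ. Dropping the filter on dim probes repeated the comparison as given, and averaging a gene's probes cannot move the change of a gene with 1 probe. Slide as a block and within slide 1 share the same changes. The 4 rises became 2 with slide as a block, 2 within slide 1 and 2 with the replicate number as a block; leaving out 1 array at a time gave 2 to 4 rises and 0 to 1 falls. That fall was Slc7a6, at −0.67 (limma's adjusted p = 0.032) without isoproterenol replicate 1, an omission that puts the groups on different slides. At the other end it was 0.020 without isoproterenol replicate 2. With slide as a block and within slide 1 it stood at 0.50. Under normexp it stood at 0.49, but the slide 2 arrays, not well above background, then read −1.89 and −1.90. Isoproterenol replicate 1, with a larger processed signal, read −2.38, so that value gives no direction. With array weights Slc3a2 and Slc1a5 also passed, where 10759 of 20011 genes did. Those weights were 0.12 for isoproterenol replicate 1 and 0.70 and 1.29 for replicates 2 and 3. That fit thus largely sets slide 2 against the controls on slide 1.

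Of all genes 3162 changed: 1452 with slide as a block (722 higher, 730 lower), 1040 within slide 1 (489 and 551), 1396 with the replicate block (786 and 610), 10759 with array weights (6043 and 4716), and 313 to 10359 with 1 array left out (177 to 5845 higher, 136 to 4514 lower). Genes detected on all 6 arrays gave 3083 higher. The split also moved: normexp, a background correction run here on median signals, gave 2081 higher and 795 lower, and scaling to the 75th percentile over probes detected on all arrays gave 1356 and 1945, against 1998 and 1164. The median change was then 0.35 and −0.17. The cause was not tested. Deviations of same-numbered samples from their group means correlated at 0.009, 0.052 and −0.025, which shows no pairing by replicate number. With few arrays, and the isoproterenol arrays divided by slide, these correlations cannot exclude it. Normexp on mean signals was not run, and median signals were used in its place; this and a variance model shared with other probes (2754 genes) were chosen after seeing the data. With 100 in place of 250 bases, TGATGNAA was in 1.35% of windows. Low signal over background on slide 2 limits what can be said of Slc7a6.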

Other observations

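Solute carriers as a whole showed a share of calls near that of all genes. Without the 8 transporters, 280 named solute carriers were tested, of which 34 rose (12.1%, against 9.98% of all genes) and 12 fell (4.29%, against 5.82%), with a median change of 0.05. This family was looked at after its values were known. The rises of largest size were those of Slc16a6, a monocarboxylate carrier, at 2.48 ± 0.33, and Slc20a1, a sodium-dependent phosphate carrier, at 2.15 ± 0.29. Slc25a25, a mitochondrial carrier of ATP-Mg and phosphate, rose by 1.82 ± 0.28, Slc39a6, a zinc carrier, by 1.45 ± 0.23, and Slc2a1, a glucose carrier, by 1.43 ± 0.26. Falls included those of 3 mitochondrial carriers, Slc25a34 at −4.24 ± 0.19, Slc25a42, which carries coenzyme A, at −1.74 ± 0.20, and Slc25a20, which carries acylcarnitines, at −1.38 ± 0.18. Slc25a34 was well above background on 2 isoproterenol arrays and Slc25a42 on 1, and under normexp Slc25a42 was at −0.06. Within slide 1 Slc39a6, Slc25a34, Slc25a42 and Slc25a20 passed and Slc16a6, Slc20a1, Slc25a25 and Slc2a1 did not.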
